A study of Mus musculus with 6 samples.

Results

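The genes described here make up an axon injury and degeneration program: the kinases Map3k12 (DLK) and Map3k13 (LZK), the transcription factors Jun, Atf3, Sox11 and Klf6, the injury-induced effectors Ecel1 and Sprr1a, and the axon survival genes Sarm1 and Nmnat2. They were chosen by name, with no threshold on their values but with earlier results of these data known, and all 10 were found among the 31169 genes of the count table. Of these, 9 were among the 17707 genes with enough reads to be tested, and Sprr1a was not. Whole retinas were compared from C57BL/6 mice given an intracameral injection, that is, into the front chamber of the eye, at 1 month of age. The saline group (3 retinas) received saline and the microbead group (3 retinas) received 15 µm microbeads, which are used to hinder the outflow of fluid and raise pressure in the eye. Tissue was taken 4 weeks later, at 2 months of age, and poly(A) RNA was sequenced. As the study injected both eyes of a mouse and the labels do not tie retinas to animals, 2 retinas may share an animal, and p-values measure only the spread between these samples.

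After an axon is injured, DLK and LZK activate the stress kinases MKK4 and MKK7, which activate JNK. JNK phosphorylates c-Jun, and c-Jun, ATF3, SOX11 and KLF6 then change transcription in the cell body, which in retinal ganglion cells is linked both to death and to attempts at regrowth. Ecel1, a membrane metalloprotease, and Sprr1a, a small proline-rich protein, are classic markers of neurons whose axons have been damaged. In the axon itself, NMNAT2 makes NAD+ and is rapidly turned over, and SARM1 is an NAD+ hydrolase that drives axon breakdown once NMNAT2 is lost. The ganglion cells are a small share of the retina, so in whole tissue fewer cells of a type and less RNA per cell cannot be told apart.

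Several libraries stood apart, and they are described before the results. The saline libraries held 36085737, 46481382 and 37546884 counts, and the microbead libraries 19834366, 13574949 and 15647739, a ratio of 2.40 between the median totals. The sample titles run on as one sequence over both groups, but the library names in the descriptions fall into 2 series, 1 for each group, which cannot be told apart from the injection. In counts per 1000000 (CPM, scaled by TMM), 21 genes of saline replicate 3 reached at least 5 CPM and at least 5 times the highest of the other 5 libraries. This rule was chosen after the values were seen. The 21 genes included Jun and other immediate-early genes, which are switched on within minutes of a stimulus: Fos stood at 1179 CPM against at most 26.2 elsewhere, Egr1 at 786 CPM and Junb at 401 CPM. They also included 7 lens genes, led by Cryaa at 210 CPM. In microbead replicate 2 the same rule found 2 genes, Ecel1 and Sprr1a. It found 13 genes in saline replicate 1 and 0 in saline replicate 2, microbead replicate 1 and microbead replicate 3. Looser rules found more in microbead replicate 2, these 2 included: 4 genes at 5 CPM and 3 times, 7 at 1 CPM and 5 times, and 28 at 1 CPM and 3 times. They also found more in other libraries. Microbead replicate 1 had 6 genes at 1 CPM and 5 times and 31 at 1 CPM and 3 times, and saline replicate 1 had 86 at the latter. Saline replicate 1 was also low in ganglion cell markers, with Rbpms at 8.55 CPM (31.8 and 38.9 CPM in saline replicates 2 and 3) and Slc17a6 at 15.4 CPM (69.4 and 91.0 CPM there).

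**Figure D1:**
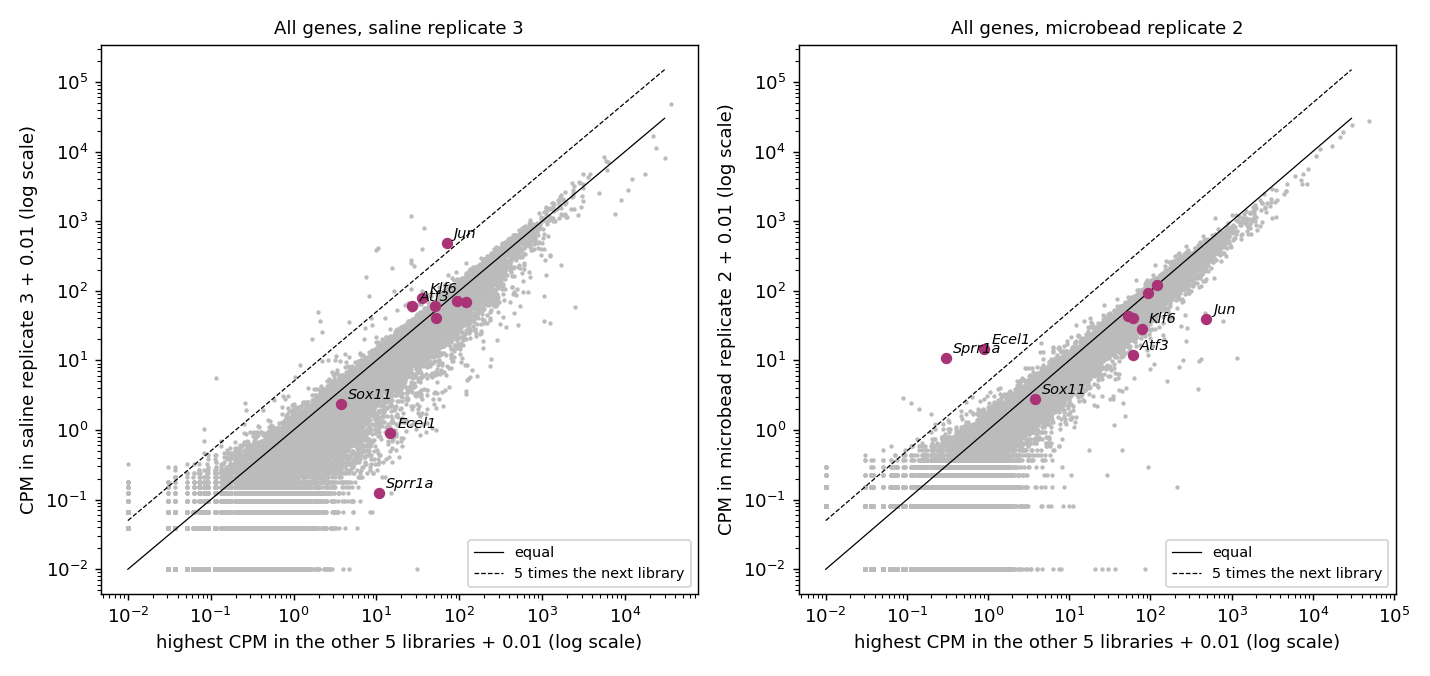
Every gene's CPM in saline replicate 3 (left) and in microbead replicate 2 (right) against its highest CPM in the other 5 libraries, on log axes with 0.01 added, with a solid line where both are equal and a dashed line at 5 times the other. Coloured points are the 10 genes, 6 of them named: Jun (480 CPM) lies above the dashed line on the left, and Ecel1 (14.6 CPM) and Sprr1a (10.8 CPM) lie above it on the right.

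Promoter sequence is shown for 3 genes that were highest in a library that stood apart and whose window held an AP-1-like motif that could be printed. These were Sprr1a for microbead replicate 2, and Jun and Klf6 for saline replicate 3. Klf6 was highest in that library but did not meet the rules above. AP-1 is the dimer of Jun and Fos or ATF family proteins. The sequences are from RefSeq (GRCm38.p6, upstream of the annotated start, written along the gene's strand), and the capitals mark TGANTCA, the AP-1 motif, in Sprr1a and TGANNTCA, a looser form chosen after the windows were seen, in Jun and Klf6.
Sprr1a, chr3:92485962-92486061, minus strand: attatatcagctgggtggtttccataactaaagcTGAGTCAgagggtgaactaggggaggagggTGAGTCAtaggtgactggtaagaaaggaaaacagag
Jun, chr4:95052223-95052342, minus strand: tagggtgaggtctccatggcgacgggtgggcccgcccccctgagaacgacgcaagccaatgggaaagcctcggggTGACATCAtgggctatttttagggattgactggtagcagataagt
Klf6, chr13:5861319-5861408, plus strand: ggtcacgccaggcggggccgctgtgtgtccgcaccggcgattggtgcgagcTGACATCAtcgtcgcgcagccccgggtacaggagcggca

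All 10 genes matched a promoter window, 11 windows in all, each from 250 bases before to 50 bases after the start, and both strands were searched. These starts need not be the outer end of the gene span printed below. Windows of Atf3 (chr1:191183284-191183583) and Map3k12 (chr15:102510651-102510950) lay inside the spans of their genes. A start without a window was not searched. The AP-1 motif TGANTCA was found only in the Sprr1a window, at 146 and 116 bases before the start, and in 7.81% of the 32851 promoters of the same length. The looser TGANNTCA, of which the cAMP response element TGACGTCA is one instance, lay in 14.1% of promoters and in the windows of Sprr1a, Jun, Klf6, Sox11 and Map3k12. TGACGTCA itself was in 1.79% of promoters and in none of the 10 genes. Its core TGACG was in 20.8% of promoters and in the windows of Map3k12, Nmnat2, Atf3 and Sarm1. No motif searched was in the Ecel1 or Map3k13 window. Such a match is a description of the letters and not a binding site.

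The kinases that start the cascade did not pass the test. Map3k12, which encodes DLK (chr15:102497646-102517064, minus strand, GRCm38), stood at 77.5, 74.8 and 70.2 CPM in saline retina and at 78.1, 93.4 and 93.8 CPM in microbead retina. All 3 microbead retinas lay above all 3 saline retinas, though microbead replicate 1 and saline replicate 1 were nearly level. The means were 74.2 ± 3.72 and 88.4 ± 8.93 CPM (SD, n = 3 each). In the edgeR quasi-likelihood fit the log2 fold change of microbead over saline was 0.25 (SE 0.16, 95% interval -0.11 to 0.61, adjusted p = 0.311). Exons of Map3k12 overlap exons of Pcbp2 and Gm10337 on the other strand over 1732 bases, and whether the counting used strand is not given in the sources used here.

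Map3k13, which encodes the related kinase LZK (chr16:21794346-21933439, plus strand), was measured at 39.2, 52.3 and 40.9 CPM in saline retina and at 12.8, 43.2 and 32.9 CPM in microbead retina. Microbead replicate 1 was the low one, and microbead replicate 2 lay inside the saline range. Its log2 fold change was -0.58 (SE 0.37, 95% interval -1.40 to 0.24, edgeR adjusted p = 0.309). Without microbead replicate 1 it was -0.22, and without microbead replicate 2 it was -0.93, so the size rested on single retinas. Its exons share 227 bases with 1300002E11Rik on the same strand and 54 with 2610020F03Rik on the other.

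Atf3, a stress-induced transcription factor of the ATF family (chr1:191170296-191218039, minus strand), was the only one of the 9 tested genes that passed the test, and it was lower in microbead retina. It stood at 27.2, 9.62 and 60.4 CPM in saline retina and at 5.76, 11.8 and 4.94 CPM in microbead retina. The groups overlapped, since saline replicate 2 was below microbead replicate 2, and saline replicate 3 was the highest. The means were 32.4 ± 25.8 and 7.51 ± 3.77 CPM (SD, n = 3 each), and the fitted difference was 4.33-fold (log2 fold change -2.11, SE 0.59, 95% interval -3.44 to -0.79, edgeR adjusted p = 0.0465). Leaving out saline replicate 3 gave -1.30 (adjusted p = 0.104), and the call was also lost without microbead replicate 1, 2 or 3 (-1.96, -2.58 and -1.90, adjusted p = 0.146, 0.0719 and 0.178). It was kept without saline replicate 1 or 2, and the direction was kept in all 6 cases. In limma-voom the value was -1.84 (adjusted p = 0.136), and over all alternative settings with the 6 libraries the adjusted p ran from 3.37e-07 to 0.150.

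Over all 17707 tested genes, 6.46% were called higher and 6.31% lower in microbead retina, 12.8% in either direction, and in 37.8% the groups did not overlap. Against that, 0 of the 9 tested genes were called higher and 1 was called lower (11.1%), and 2 had groups that did not overlap (22.2%). DESeq2 also called 0 higher and 1 lower, and limma-voom called 0 in either direction. At an unadjusted p under 0.05 in edgeR there were 4 (44.4%), with Ecel1 higher and Jun, Atf3 and Klf6 lower, beside 5564 of all tested genes (31.4%). The median log2 fold change was -0.46 over the 9 genes and -0.03 over all tested genes. The share called was near that of the whole table.

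Jun, the main transcriptional target and substrate of the JNK cascade (chr4:95049034-95052222, minus strand), showed the widest spread of the transcription factors. It was at 70.2, 48.6 and 480 CPM in saline retina and at 34.2, 38.8 and 42.2 CPM in microbead retina. The groups did not overlap, yet saline replicate 3 was 8.08 times the mean of the other saline retinas, and the microbead retinas were close together. The log2 fold change was -2.38 (SE 0.73, 95% interval -4.02 to -0.73) with an edgeR adjusted p of 0.0621. Without saline replicate 3 it was -0.63 (adjusted p = 0.094). Leaving out saline replicate 1 gave -2.78 (adjusted p = 0.0212) and leaving out saline replicate 2 gave -2.84 (adjusted p = 0.0465), both past the threshold. Jun shares 232 exonic bases with Junos on the other strand.

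Klf6, a Krüppel-like factor that promotes axon growth (chr13:5861482-5870394, plus strand), had a similar high saline retina. Its values were 35.6, 28.2 and 78.4 CPM in saline retina and 30.0, 28.3 and 22.7 CPM in microbead retina, so the groups overlapped, and saline replicate 3 was 2.46 times the mean of the other saline retinas. The log2 fold change was -0.81 (SE 0.35, 95% interval -1.59 to -0.03, edgeR adjusted p = 0.145), and without saline replicate 3 it was -0.24 (adjusted p = 0.511). In Atf3, saline replicate 3 was 3.28 times the mean of the other saline retinas. The immediate-early and lens genes that stood out in saline replicate 3 moved with Jun, Atf3 and Klf6, and their part in these differences was not tested.

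Sox11, a SoxC factor that drives growth programs in developing and injured neurons (chr12:27334264-27342574, minus strand), was low in every retina. It was at 2.26, 3.73 and 2.34 CPM in saline retina and at 1.90, 2.74 and 1.43 CPM in microbead retina, and the groups overlapped. A log2 fold change of -0.46 was fitted (SE 0.41, 95% interval -1.37 to 0.45, edgeR adjusted p = 0.473).

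**Figure D2:**
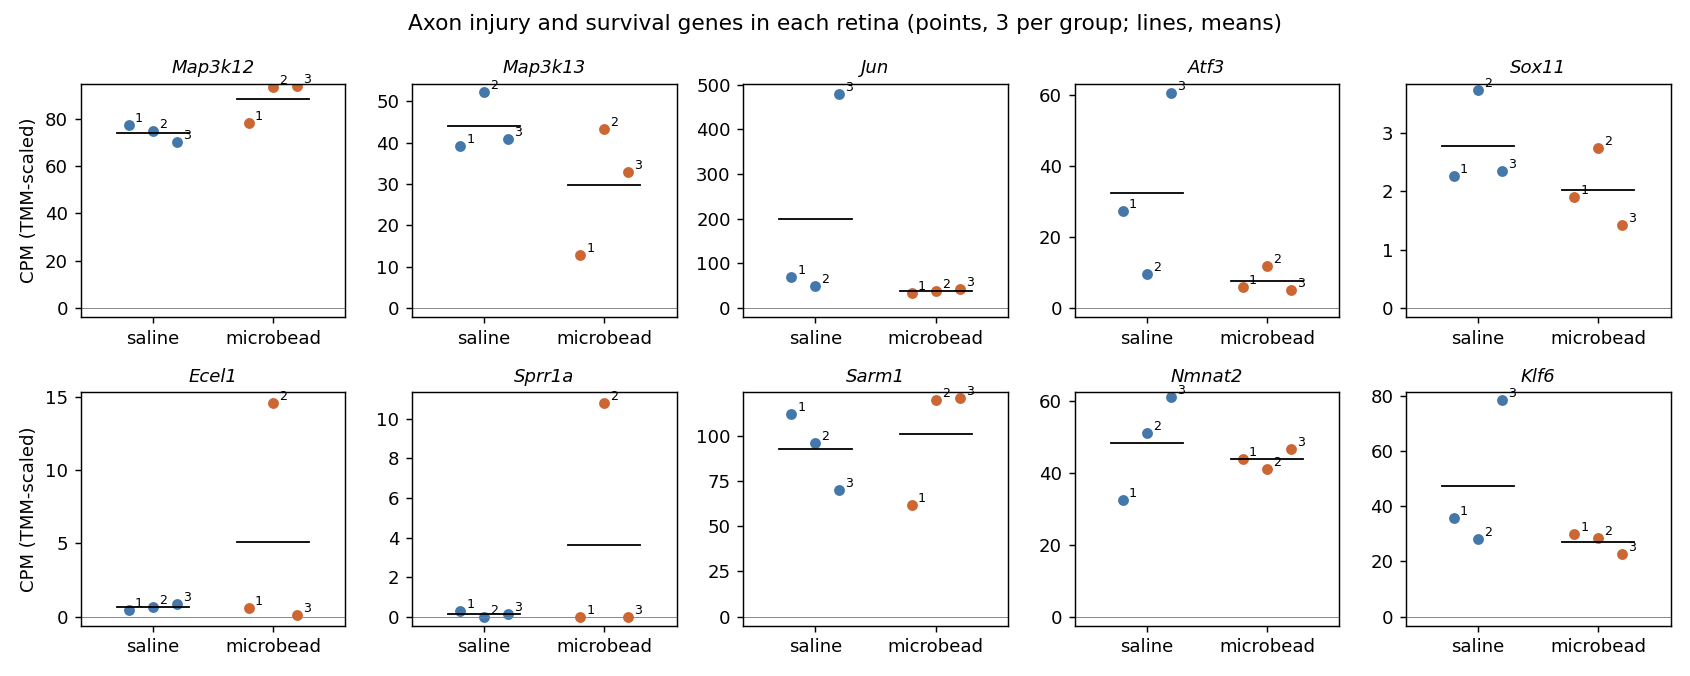
Level of each of the 10 genes in CPM in the 3 saline and 3 microbead retinas (points, labelled by replicate number, with a line at the group mean), each panel on its own linear axis. Saline replicate 3 is the highest point for Jun (480), Atf3 (60.4) and Klf6 (78.4), and microbead replicate 2 is the highest for Ecel1 (14.6) and Sprr1a (10.8).

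The effectors Ecel1 and Sprr1a were under 1 CPM in all retinas but 1. Ecel1 (chr1:87147655-87156521, minus strand), also known as DINE, had 16, 31 and 31 counts in saline retina and 11, 202 and 2 counts in microbead retina. In CPM these were 0.425, 0.643 and 0.884 in saline retina and 0.566, 14.6 and 0.130 in microbead retina. Microbead replicate 2 was 16.5 times the highest of the other 5 retinas, while microbead replicate 3 was the lowest of all. Its log2 fold change was 2.95 (SE 1.25, 95% interval 0.14 to 5.76, edgeR adjusted p = 0.142), and without microbead replicate 2 it reversed to -0.85 (adjusted p = 0.531). In limma-voom it was 0.70.

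Sprr1a (chr3:92483952-92485895, minus strand), which is nearly silent in intact neurons, had 11, 0 and 4 counts in saline retina and 0, 149 and 0 counts in microbead retina. These gave 0.292, 0 and 0.114 CPM in saline retina and 0, 10.8 and 0 CPM in microbead retina. A count of 0 allows up to 0.0622 CPM in saline replicate 2, 0.154 CPM in microbead replicate 1 and 0.195 CPM in microbead replicate 3, for counting error only. Microbead replicate 2 was thus 36.8 times the highest other retina, and 3 of the 6 retinas gave no read. The gene did not pass the filter on low counts and was not tested.

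Microbead replicate 2 was the shallowest library, at 13574949 counts. Surface epithelium also expresses Sprr1a, and the 7 of its listed markers in the table summed to 4.12 CPM in microbead replicate 2. They summed to 4.14, 15.4 and 11.3 CPM in saline retina and to 4.89 and 5.07 CPM in microbead replicates 1 and 3. The part of this tissue in the Sprr1a values was not tested. Sfn was the most abundant of these markers per length, and the defining keratins Krt5, Krt12, Krt14 and Krt15 were each at 0 in at least 1 library. A list of 7 skeletal muscle genes, added after the values were seen, summed to 15.7 CPM in microbead replicate 2, against 9.32 and 9.94 CPM in the other microbead retinas and 5.29 to 5.55 CPM in saline retina, and its part in the effector values was not tested. Tnnt3 at 2.46 CPM and Myh1 at 2.02 CPM were at most 0.133 CPM in the other 5. Both were already among the genes found in this library at 1 CPM and 5 times. Ckm (1.73 CPM) and Tnni2 (0.939 CPM) were also highest there. The others did not follow. Mylpf, the most abundant in every library, was at 6.57 CPM, below 6.95 CPM in microbead replicate 1. Acta1 was at 2.02 CPM, below 2.25 CPM in saline replicate 3, and Myh4 gave 0. The ganglion cell markers summed to 1544 CPM in that retina, against 2066 and 1916 CPM in the other microbead retinas. Atf3 was highest among the microbead retinas in the same library, at 11.8 CPM, and so was Sox11, at 2.74 CPM, whereas Jun (38.8 CPM) and Klf6 (28.3 CPM) lay between the others.

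The axon survival genes did not pass the test, and their signs depended on single retinas. Sarm1, the NAD+ hydrolase (chr11:78472330-78497754, minus strand), was at 112, 95.9 and 69.8 CPM in saline retina and at 61.9, 120 and 121 CPM in microbead retina. Microbead replicate 1 was the lowest of all 6 and the other microbead retinas were the highest. The log2 fold change was 0.12 (SE 0.28, 95% interval -0.50 to 0.74, edgeR adjusted p = 0.799), and it was -0.05 without saline replicate 3 and -0.03 without microbead replicate 3.

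Nmnat2, the axonal NAD+ synthesis enzyme (chr1:152954993-153119261, plus strand), was at 32.5, 51.1 and 60.9 CPM in saline retina and at 43.7, 41.1 and 46.5 CPM in microbead retina. The microbead values lay wholly inside the saline range. The log2 fold change was -0.14 (SE 0.23, 95% interval -0.65 to 0.38, edgeR adjusted p = 0.724), and it turned to 0.07 without saline replicate 3. As folds, the 95% intervals ran from 0.707 to 1.67 for Sarm1 and from 0.636 to 1.30 for Nmnat2, so larger differences than these lie outside them.

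**Figure D3:**
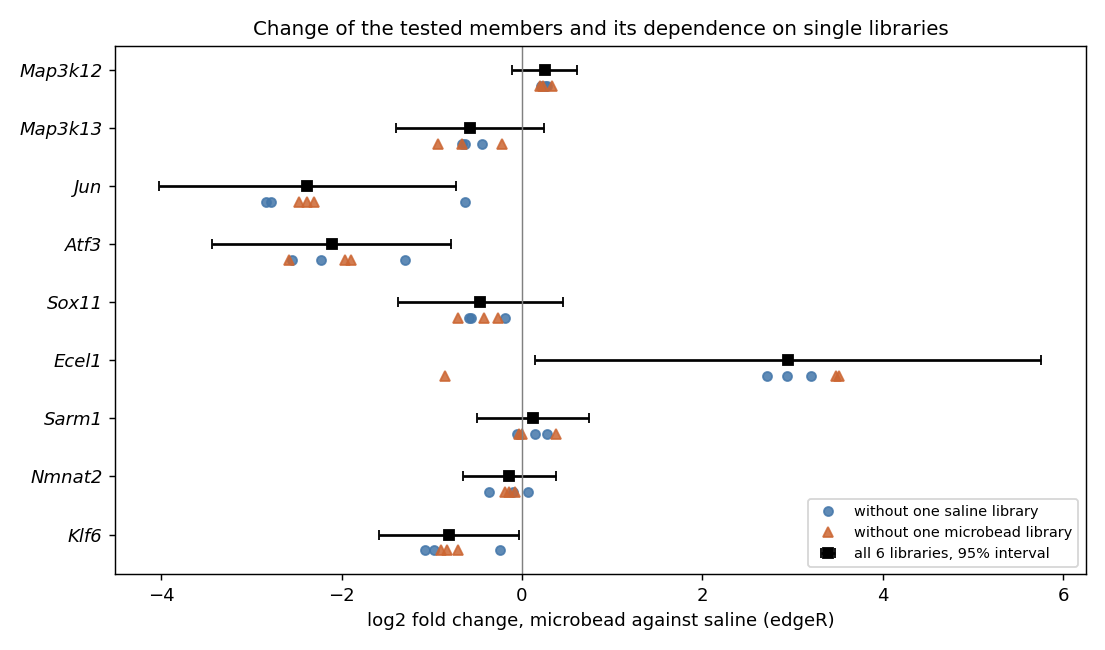
Log2 fold change of microbead over saline for the 9 tested genes (points) with 95% intervals from the edgeR fit (bars) and the values with 1 library left out (circles for saline, triangles for microbead), beside a line at 0. Only Atf3 (-2.11) was called, Ecel1 ran from -0.85 to 3.52 when libraries were left out, and Sarm1 and Nmnat2 crossed 0.

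Levels were compared between genes per kilobase of exon and per 1000000 scaled counts, a scale on which genes of different length can be set side by side. In saline retina the order of the mean levels (± SD, n = 3) was Jun at 62.6 ± 76.2, Sarm1 at 16.43 ± 3.775, Atf3 at 15.04 ± 11.97, Klf6 at 10.8 ± 6.18, Nmnat2 at 8.325 ± 2.495, Map3k12 at 8.25 ± 0.413 and Map3k13 at 5.06 ± 0.816. Neighbours from Jun down to Map3k12 did not differ beyond their spread. The first place of Jun rested on saline replicate 3: over saline replicates 1 and 2 its mean was 18.62, level with Sarm1 at 18.45, and that of Atf3 was 8.541. Map3k12 was above Map3k13 by more than the SD of either. Far below them, Sox11 at 0.334 ± 0.0998, Ecel1 at 0.186 ± 0.0657 and Sprr1a at 0.168 ± 0.183 overlapped one another in their spread. In microbead retina Sarm1 led at 17.9 ± 5.98, followed by Jun at 12.04 ± 1.26 and Map3k12 at 9.84 ± 0.993, and Sox11 had the lowest mean at 0.244 ± 0.0801. That last place came from microbead replicate 2, since in microbead replicates 1 and 3 Sox11 (0.229 and 0.172) was above Ecel1 (0.162 and 0.0371) and Sprr1a (0 in both).

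The wider pathway was read from 5 gene lists with 145 entries, of which 142 were in the table and 137 were tested. None of the 10 genes above is counted in them. In edgeR 4 of the 137 were called higher (2.92%) and 15 lower (10.9%), beside 6.46% and 6.31% over all genes. The median log2 fold change of the 137 was -0.20. The groups did not overlap in 43 of the 137 (31.4%), a smaller share than the 37.8% of all tested genes. Without saline replicate 3 there were 3 higher and 12 lower, without microbead replicate 2 there were 1 and 4, and without microbead replicate 3 there were 0 and 0, so every call named from these lists was lost there. Without microbead replicate 1 there were 2 and 3, without saline replicate 1 there were 3 and 20, and without saline replicate 2 there were 0 and 6. The lists were chosen with earlier results of these data known, so their counts are descriptions.

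In the DLK and JNK cascade, 1 of 27 genes was called higher and 4 lower, with a median of -0.15. Map2k7, which encodes MKK7, rose: it was at 69.7, 62.4 and 45.4 CPM in saline retina and at 102, 148 and 163 CPM in microbead retina (log2 fold change 1.22, SE 0.23, edgeR adjusted p = 0.0167). All microbead retinas were above all saline retinas, and a second entry under the same symbol, with at most 4 counts in a library, was not used. Map2k4, which encodes MKK4, was not called (log2 fold change 0.40, edgeR adjusted p = 0.158). The genes that fell included 3 phosphatases that switch off MAP kinases. Dusp8 was at 258, 235 and 229 CPM in saline retina and at 131, 139 and 166 CPM in microbead retina (log2 fold change -0.73, SE 0.17, edgeR adjusted p = 0.0268). Dusp4 fell by 1.38 and Dusp16 by 0.91 on the log2 scale (edgeR adjusted p = 0.0260 and 0.0302), again with no overlap between groups. The fifth call was Fbxo45, part of the ubiquitin ligase with PHR1 that limits DLK protein, which fell by 0.66 on the log2 scale (edgeR adjusted p = 0.0320) and was named after its values were seen. Of the 6 fits that left out 1 library, Map2k7 and Dusp16 were called in 3, and Dusp4, Dusp8 and Fbxo45 in 2.

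Of the 24 tested injury-induced transcription factors, 1 was called higher and 4 lower, with a median of -0.20, while limma-voom called 1 and 1. Cebpb, a stress-responsive C/EBP factor, was at 7.22, 3.38 and 29.2 CPM in saline retina and at 0.463, 0.217 and 1.10 CPM in microbead retina (log2 fold change -4.46, SE 0.87, edgeR adjusted p = 0.0175). The microbead values came from only 9, 3 and 17 counts, so the size of the fold is uncertain. With the filter of 10 counts in every library the gene was not tested. Its groups did not overlap, and without saline replicate 3 it was at -3.14 (adjusted p = 0.0169). Cebpd, its relative, was at 112, 15.4 and 74.9 CPM against 13.9, 8.95 and 11.6 CPM, with a log2 fold change of -2.54 (SE 0.57, edgeR adjusted p = 0.0253). Leaving out saline replicate 3 gave -2.46 (adjusted p = 0.0328). Both C/EBP calls were lost without microbead replicate 1, 2 or 3 (adjusted p from 0.0616 to 0.115) and in limma-voom (adjusted p = 0.102 for Cebpb and 0.0960 for Cebpd). Junb, a partner of Fos, was at 35.6, 16.9 and 401 CPM against 12.6, 9.68 and 17.5 CPM. Its groups overlapped, and its log2 fold change of -3.51 (SE 1.01, edgeR adjusted p = 0.0498) became -0.99 without saline replicate 3 (adjusted p = 0.0972). In limma-voom it was -2.27 (adjusted p = 0.218), and with RLE or upper-quartile scaling it just missed the threshold (adjusted p = 0.0508 and 0.0522).

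Sox4, the SoxC relative of Sox11, fell with no overlap between groups, from 9.69, 12.6 and 15.9 CPM in saline retina to 3.71, 5.99 and 5.59 CPM in microbead retina (log2 fold change -1.33, SE 0.29, edgeR adjusted p = 0.0235), and was called in 2 of the 6 fits that left out 1 library. The factor that rose was Max, the partner of Myc, named after its values were seen (log2 fold change 0.59, SE 0.16, edgeR adjusted p = 0.0455), and was called in 1 of those 6 fits and not with the GC and length offset (0.51, adjusted p = 0.0959). Fos was not called, at a log2 fold change of -5.04 (SE 1.48, edgeR adjusted p = 0.0536), and stood at 26.2, 12.4 and 1179 CPM in saline retina and at 9.73, 10.8 and 16.4 CPM in microbead retina.

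Regeneration-associated and injury effector genes were called higher in 2 and lower in 1 of 34 tested cases, with a median of -0.33. Npy, a neuropeptide, was at 11.3, 8.77 and 9.10 CPM in saline retina and at 28.4, 14.7 and 21.8 CPM in microbead retina (log2 fold change 1.16, SE 0.26, edgeR adjusted p = 0.0261). Phlda1 rose by 0.87 on the log2 scale (SE 0.23, edgeR adjusted p = 0.0393), and Plat, the tissue plasminogen activator, fell by 0.91 (SE 0.24, edgeR adjusted p = 0.0399). In none of these 3 did the groups overlap, which held for 11 of the 34 (32.4%) and for 37.8% of all tested genes. Of the 6 fits that left out 1 library, Npy was called in 3, Phlda1 in 1 and Plat in 0 (adjusted p from 0.0613 to 0.146), and limma-voom did not call Plat (adjusted p = 0.0545). Phlda1 was not called with the GC and length offset (0.76, adjusted p = 0.0884). Gap43, the growth cone protein, was at 26.2, 37.9 and 47.7 CPM in saline retina and at 53.4, 32.3 and 38.2 CPM in microbead retina (edgeR adjusted p = 0.733).

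Of 28 tested genes of NAD metabolism and axon survival, the genes closest in role to Sarm1 and Nmnat2, 0 were called higher and 1 lower, with a median of -0.05. The call was Tnfrsf21, which encodes death receptor 6 and was named after its values were seen. It stood at 28.2, 22.2 and 26.5 CPM in saline retina and at 14.9, 14.1 and 17.3 CPM in microbead retina (log2 fold change -0.73, SE 0.19, edgeR adjusted p = 0.0385), and the call was lost in all 6 fits that left out 1 library. The largest differences by the naming rule were in Nmrk1, a nicotinamide riboside kinase (0.76, SE 0.27, edgeR adjusted p = 0.0869), and Nadk2, the mitochondrial NAD kinase (-0.77, SE 0.31, edgeR adjusted p = 0.125), and neither passed in edgeR. Nmrk1 was called higher by DESeq2 (0.77, adjusted p = 0.0456). At an unadjusted p under 0.05 this list had 2 genes higher and 5 lower (7 of 28 in all, a lower share than the 31.4% of all tested genes), and DESeq2 called 1 of each.

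Brakes on axon growth had 5 of 24 tested genes called lower (20.8%) and 0 higher, with the lowest median of the 5 lists, -0.51. Nr2f6, a nuclear receptor, was at 14.0, 15.5 and 17.7 CPM against 6.23, 4.04 and 6.89 CPM (log2 fold change -1.46, SE 0.26, edgeR adjusted p = 0.0149). Its groups did not overlap, and the call was kept in 4 of the 6 fits that left out 1 library. With a GC and length offset the value was -0.86 (adjusted p = 0.0490), and with a replicate block as well it was -0.88 and not called (adjusted p = 0.0958). Socs3, the inhibitor of JAK-STAT signalling, was at 28.3, 6.70 and 228 CPM against 6.69, 8.16 and 5.52 CPM. Its groups overlapped, and its log2 fold change of -3.69 (SE 1.03, edgeR adjusted p = 0.0464) became -1.36 without saline replicate 3 (adjusted p = 0.101).

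Klf4, a Krüppel-like factor that restrains growth, fell by 1.76 on the log2 scale (SE 0.50, edgeR adjusted p = 0.0478), and was at -1.03 without saline replicate 3 (adjusted p = 0.124). It just missed the threshold with RLE scaling, and with upper-quartile scaling and thinning (adjusted p = 0.0515 and 0.0535). Ngfr, the p75 neurotrophin receptor, named after its values were seen, fell by 0.90 (SE 0.23, edgeR adjusted p = 0.0359). With saline replicate 3 left out, 3 of the 24 genes were called lower. At an unadjusted p under 0.05 there were 1 higher and 13 lower (58.3% in all, beside 31.4% of all tested genes), while DESeq2 called 0 and 9 and limma-voom 0 and 3. Socs3 and Klf4 were among the calls lost in limma-voom (adjusted p = 0.286 and 0.117). Leaving out 1 library at a time, Socs3 was called in 2 of 6 fits and Klf4 and Ngfr in 1 each.

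**Figure D4:**
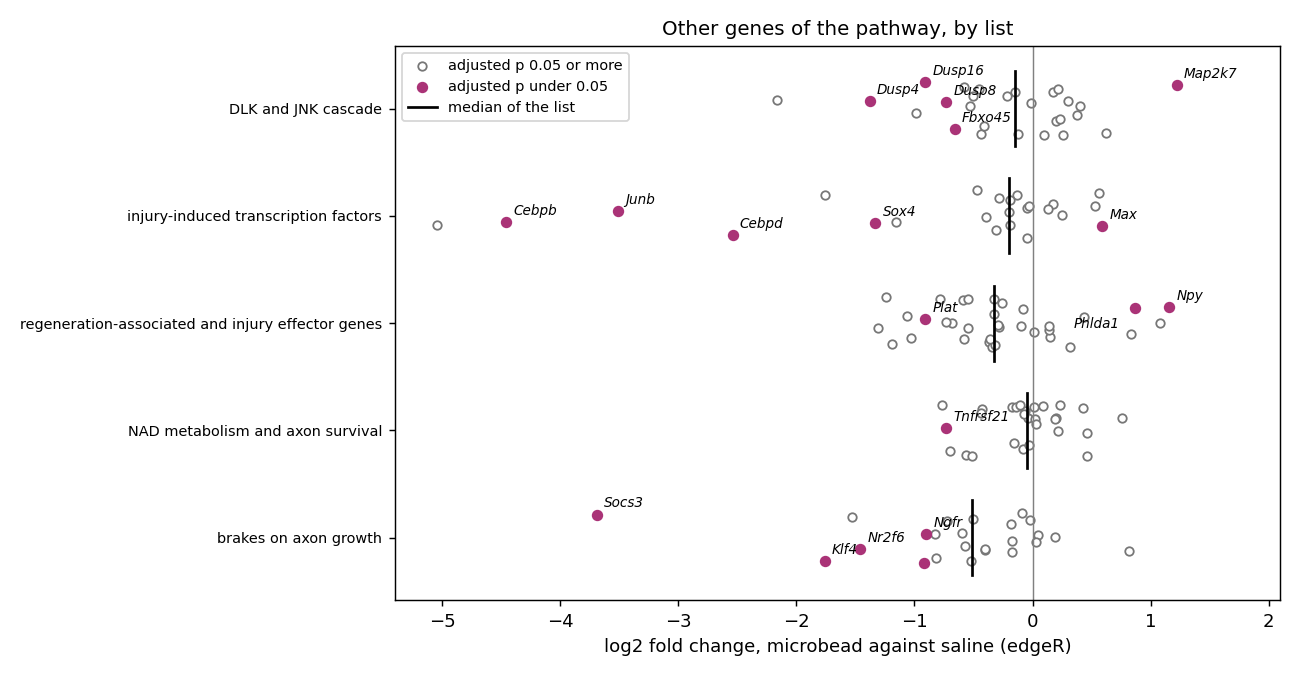
Log2 fold change of microbead over saline for the 137 tested genes of the 5 pathway lists (1 point a gene, filled where edgeR called it, most of those named, with a line at each list's median). Medians run from -0.51 for brakes on axon growth to -0.05 for NAD metabolism and axon survival, and 4 genes were called higher and 15 lower in all.

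Cell type markers were read beside these genes. For the calls below, 6.46% of all tested genes were called higher and 6.31% lower, 12.8% in either direction. The 18 ganglion cell markers, of which Sncg was the most abundant per length, summed to 741, 1774 and 2261 CPM in saline retina and to 2066, 1544 and 1916 CPM in microbead retina, and 0 of the 18 were called by edgeR, by DESeq2 or by limma-voom, with 3 higher and 0 lower at an unadjusted p under 0.05 in edgeR. The balance rested on saline replicate 1: the log2 fold change was positive for 12 and negative for 6 of the 18 with all libraries, and positive for 5 and negative for 13 without that retina. Nefl (-0.82, edgeR adjusted p = 0.0393) and Slc17a6 (-0.69, edgeR adjusted p = 0.0460) were then called lower. Without saline replicate 3, 16 of the 18 were positive and 0 were called. The Müller glia markers, led by Glul, summed to 5588, 6217 and 9347 CPM against 5662, 5474 and 4654 CPM, with 4 of 10 called lower (2 in limma-voom). Of the 6 fits that left out 1 library, Crym was called in 3, Dkk3 and Sox9 in 2 and Vim in 0. Endothelial markers, led by Kdr, summed to 457, 475 and 658 CPM against 307, 433 and 283 CPM, with 3 of 8 called lower. With 1 library left out, Esam was called in 3 of 6 fits, Flt1 in 2 and Cldn5 in 1. Lens markers, led by Cryaa, summed to 281 CPM in saline replicate 3, to 21.7 CPM in saline replicate 1 and to at most 1.82 CPM in the other 4 retinas. Microglial markers, led by C1qa, summed to 222, 61.0 and 90.8 CPM in saline retina and to 124, 123 and 55.2 CPM in microbead retina, highest in saline replicate 1. Pigment epithelium markers, led by Ttr, summed to 12.2, 56.5 and 245 CPM in saline retina and to 125, 105 and 118 CPM in microbead retina. Rod markers lay between 60824 and 90748 CPM, highest in saline replicate 3, with 1 of 10 called higher (Pdc, log2 fold change 1.01, edgeR adjusted p = 0.0362) and 1 lower (Nrl, -0.97, adjusted p = 0.0192). Pdc was called in 1 and Nrl in 3 of the 6 fits that left out 1 library. Neither was called with the GC and length offset. The cone, bipolar and amacrine lists lay between 828 and 1711 CPM in every retina, the astrocyte list between 65.6 and 96.9, the pericyte list between 99.3 and 195, and the blood list between 10.9 and 41.6. Among these edgeR called the cone gene Arr3 higher (1.44, adjusted p = 0.0126), and the astrocyte gene Aldh1l1 (-1.23, adjusted p = 0.0307) and the pericyte gene Pdgfrb (-0.87, adjusted p = 0.0377) lower. Arr3 was called in 5 of the 6 fits that left out 1 library, Aldh1l1 in 3 and Pdgfrb in 2. Aldh1l1 was not called by limma-voom. Jun, Atf3, Klf6 and the C/EBP factors are also made by glia, vessels and immune cells, and the part of these cells in their differences was not tested.

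**Figure D5:**
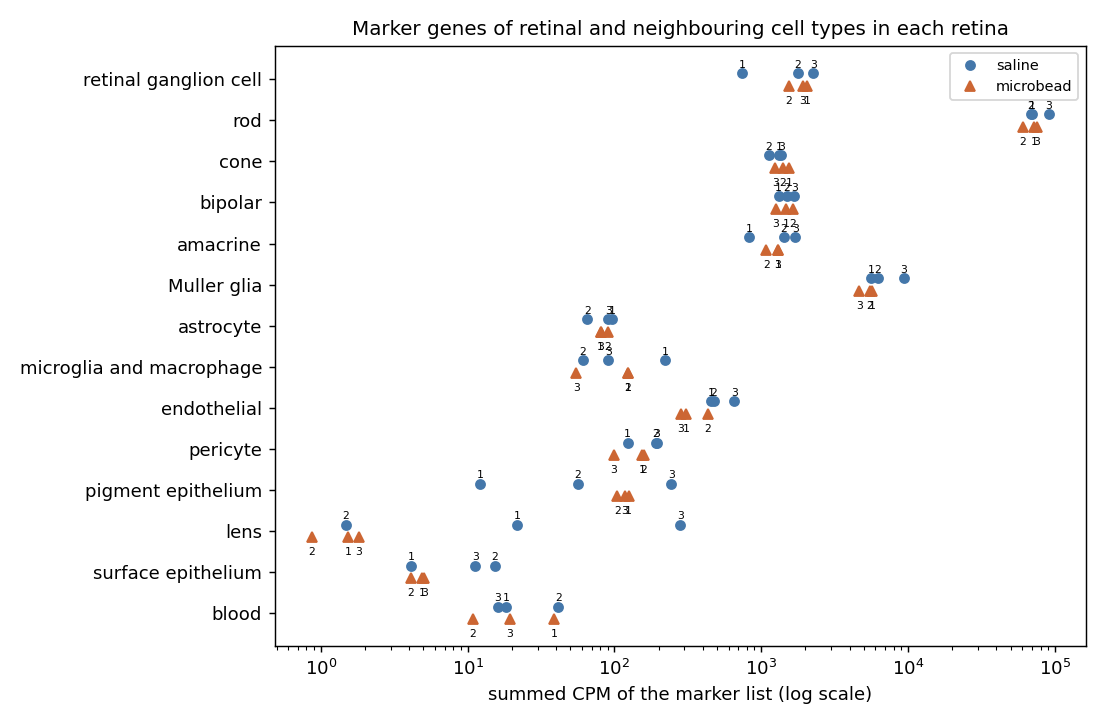
Summed CPM of each cell type marker list in the 6 retinas, on a log axis (points, saline and microbead coloured apart). Ganglion cell markers are lowest in saline replicate 1 at 741 CPM, and lens markers are highest in saline replicate 3 at 281 CPM.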

How the data were processed

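Whole-retina poly(A) RNA was measured in 3 saline and 3 microbead libraries of 100-bp paired-end reads. Per the study's methods the authors aligned reads to GRCm38.p5 with STAR 2.5.3a, which was given GENCODE vM12 annotations. They counted reads per gene with featureCounts 1.15.2. The deposited raw counts were used. The deposited table also holds the authors' own comparison, namely a mean normalized signal, a log2 fold change, a fold ratio, p-values and a call, none of which was used. Genes were tested with edgeR 4.0.16 (quasi-likelihood, TMM, filterByExpr with a minimum count of 10 and a total of 15, Benjamini-Hochberg adjustment over 17707 genes, threshold 0.05) in R 4.3.3, with no covariate. SE is the log2 fold change divided by the root of F, and intervals use the fit's residual and prior degrees of freedom. The script was tested on simulated data. CPM were scaled by TMM, and levels per length used exon unions of GENCODE vM21. Precision follows depth: 3 counts equal 0.0622 to 0.217 CPM. Intervals and floors cover these samples or counting error only. The same-numbered libraries did not deviate together, so no pairing was used.

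The members, the pathway and marker lists and the promoter motifs were chosen with earlier results of these data known. In each pathway list the text names up to 4 called genes with the largest absolute log2 fold change or, where fewer than 2 were called, the 2 tested genes with the largest. All other genes named beside the members, such as Fos, Gap43, Map2k4 and single marker genes other than the most abundant of a list and the keratins at 0, were named after their values were seen. Wherever the gene passed the filter of the setting, results were also computed with DESeq2 1.42.0 and with limma-voom (limma 3.58.1), with RLE or upper-quartile factors, with totals that leave out the 100 genes of highest count, with the filter dropped or raised to 10 counts in each of the 6 libraries, after thinning to equal depth, with a GC and length offset, with a replicate block, at a threshold of 0.01 and with each library left out. One more, without saline replicate 3 and microbead replicate 2, was chosen after seeing the data. Some items that the naming rule would give are not reported here.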

Additional observations from a re-analysis of the deposited data

How the results depend on the processing

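Outside microbead replicate 2, Ecel1 and Sprr1a had the lowest counts of the members, and 3 counts are 0.154 to 0.217 CPM in the microbead libraries. Their high values, 202 and 149 counts, came from microbead replicate 2 alone, the shallowest library. Leaving out 1 library, or saline replicate 3 and microbead replicate 2 together, gave 0 to 2 members called lower and 0 called higher, 0 to 3 and 0 to 20 genes of the pathway lists called higher and lower, and 26 to 1356 and 20 to 1265 genes of the whole table. The lowest counts of the table came without microbead replicate 3. Over the same fits the log2 fold change ran from -0.85 to 3.52 for Ecel1, from -0.16 to 0.38 for Sarm1 and from -0.36 to 0.14 for Nmnat2, so all 3 changed sign, Ecel1 without microbead replicate 2 and, at -0.55, without both libraries. Sarm1 was -0.05 without saline replicate 3 and -0.03 without microbead replicate 3, and Nmnat2 was 0.07 without saline replicate 3. In the whole table DESeq2 called 1821 genes higher and 1800 lower, and an adjusted p under 0.01 left 55 and 32. With no filter 2209 genes were called lower, and the median of all genes moved by -0.20 to -0.23. Among the members, no filter called 2 higher (Ecel1 and Sprr1a) and 3 lower (Jun, Atf3 and Klf6), while limma-voom and the stricter threshold called 0. In the pathway lists 23 genes were lower with DESeq2, 29 with no filter, 9 with limma-voom and 0, with 0 higher, at the stricter threshold. The other scalings, the stricter filter, thinning and the GC and length offset kept each count within 1.5 times and the call of Atf3, but single calls among the 26 genes followed were lost, 2 each with RLE and upper-quartile scaling and 1 each with thinning and the offset. Replicate numbers did not pair the samples: deviations of same-numbered libraries correlated at -0.0351, 0.136 and 0.00997. The fit with a replicate block called 480 genes higher and 425 lower, 0 members, and 1 and 9 genes of the pathway lists. With the GC and length offset as well, the block gave 455 and 188, 0 members, and 1 and 5. The cause of these changes was not tested.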

Other observations

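Saline replicate 1 differed from the other retinas in another gene group. Of its 13 genes at 5 CPM or more and at least 5 times every other library, the highest were the complement gene C4b at 284 CPM, Serpina3n, a marker of reactive glia, at 240 CPM, and the protease inhibitor A2m at 89.7 CPM. Immunoglobulin genes were among them, with Ighg1 at 30.4 CPM and Igkc at 17.5 CPM. In the same retina Cebpd was at its highest, 112 CPM, while Atf3 at 27.2 CPM and Jun at 70.2 CPM were second to saline replicate 3, and Sprr1a gave 11 counts. How far this retina's state bears on these genes was not tested.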
